A study of Mus musculus with 6 samples.

Results

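The 10 genes examined here mark plasmacytoid and conventional dendritic cells, and they were followed in sorted mouse bone marrow cells with overexpressed or endogenous microRNA-125a (miR-125a). They were Siglech, Bst2, Tcf4, Irf8, Spib, Runx2, Cox6a2, Itgax, Xcr1 and Clec9a, taken by symbol through the GENCODE vM21 annotation, and all 10 had a row among the 55450 genes of the deposited count table. The overexpressed group received haematopoietic stem cells made to overexpress miR-125a, and the endogenous group received stem cells with endogenous miR-125a. In both groups the recipients had been lethally irradiated, the strain was C57BL6/SJL, and RNA was taken 12 weeks after transplantation from 2000 bone marrow cells per library, sorted as negative for lineage markers and positive for Sca-1. The labels name 3 libraries per group, of which overexpressed replicates 2 and 3 and endogenous replicates 1 and 3 were analysed, so n = 2 in each group. The other two were not analysed here. The sources used here give no vector, promoter, recipient age or number of recipients for these groups. Since separate recipients are not stated for the libraries, the p-values measure the spread between libraries only, and part or all of that spread may be technical.

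Dendritic cells take up and present antigen, and in marrow they arise from progenitors that respond to the growth factor FLT3 ligand. Plasmacytoid dendritic cells sense viral nucleic acids and release type I interferon, and their identity depends on the E protein TCF4, with SPIB and RUNX2 acting further along the same path. Conventional type 1 dendritic cells depend on IRF8 and carry XCR1 and CLEC9A, with which they follow chemokine signals and bind dead cells to present their antigens to CD8 T cells.

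The labels name miR-125a as what differed between the groups, and its arms are shown because a microRNA recognises targets through bases 2 to 8, the seed, here in capitals. The mature sequences, from RefSeq on GRCm38.p6, lie on the plus strand of chromosome 17 at chr17:17830817-17830840 (5p) and chr17:17830855-17830876 (3p).
miR-125a-5p: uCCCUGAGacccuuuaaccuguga
miR-125a-3p: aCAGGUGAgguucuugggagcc

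The letters complementary to the 5p seed, CTCAGGG, were in the longest annotated 3' UTR of 0 of the 10 genes, against 14.1% of 21130 coding genes with such a UTR. The letters complementary to the 3p seed, TCACCTG, were in 2 of the 10, Siglech and Xcr1, and also in 14.1% of coding genes. Only exact 7-base matches on the transcript strand were searched, and a match is a description, not a site shown to be used. The matches are shown with 8 bases on each side, at bases 214 to 220 of the Siglech UTR and 2471 to 2477 of the Xcr1 UTR.
Siglech: aaccaaccTCACCTGtcaggtga
Xcr1: gagcattgTCACCTGtagggact

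Total counts ran from 654126 to 737431 per library. Mitochondrial genes took 0.558% of counts in overexpressed replicate 3 and from 4.14% to 6.29% in the other libraries. Ly6a, which encodes the sorting marker Sca-1, had 1 and 1 counts in the overexpressed libraries and 1 and 0 in the endogenous libraries, so the label of the sort could not be checked from it. Of 11 stem and progenitor markers, 0 had a density above the background defined next. Counts were also spread thinly over genes that marrow cells are not known to use: of 1479 genes of odorant, vomeronasal and trace-amine receptors, the share with a count ran from 87.8% to 91.8% over the libraries. The mean density of these receptor genes, in counts per kb of exon, had a median of 1.93 and a 95th percentile of 8.30, and that percentile is used below as the level of background.

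Of the 10 dendritic cell genes only Siglech and Bst2 had a mean density above that background. Siglech averaged 69.5 counts per kb of exon over the 4 libraries and Bst2 28.5. The next in order were Runx2 (5.29), Xcr1 (4.27), Irf8 (3.40), Itgax (2.65), Clec9a (2.20), Tcf4 (1.85), Cox6a2 (0.735) and Spib (0.174). Of the receptor genes, 89.6% had a lower mean density than Runx2, 85.7% than Xcr1, 47.3% than Tcf4 and 4.73% than Spib. In single libraries the density of Runx2 reached 12.6 in overexpressed replicate 2 and that of Irf8 reached 8.50 in the same library. The background level is a percentile of means over the 4 libraries. Within single libraries the 95th percentile of receptor genes was 6.68 and 8.99 in overexpressed replicates 2 and 3. It was 8.86 and 10.4 in endogenous replicates 1 and 3. Siglech had 14.8 and 3.25 in overexpressed replicates 2 and 3, against 5.91 and 254 in endogenous replicates 1 and 3. Its mean thus rested on endogenous replicate 3, and overexpressed replicate 3 and endogenous replicate 1 lay below the background level. Bst2 lay below that level in overexpressed replicate 3 (6.64). Over all genes 8.26% had a mean density above background, and of the genes kept for the fit 26.4% did.

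**Figure D1:**
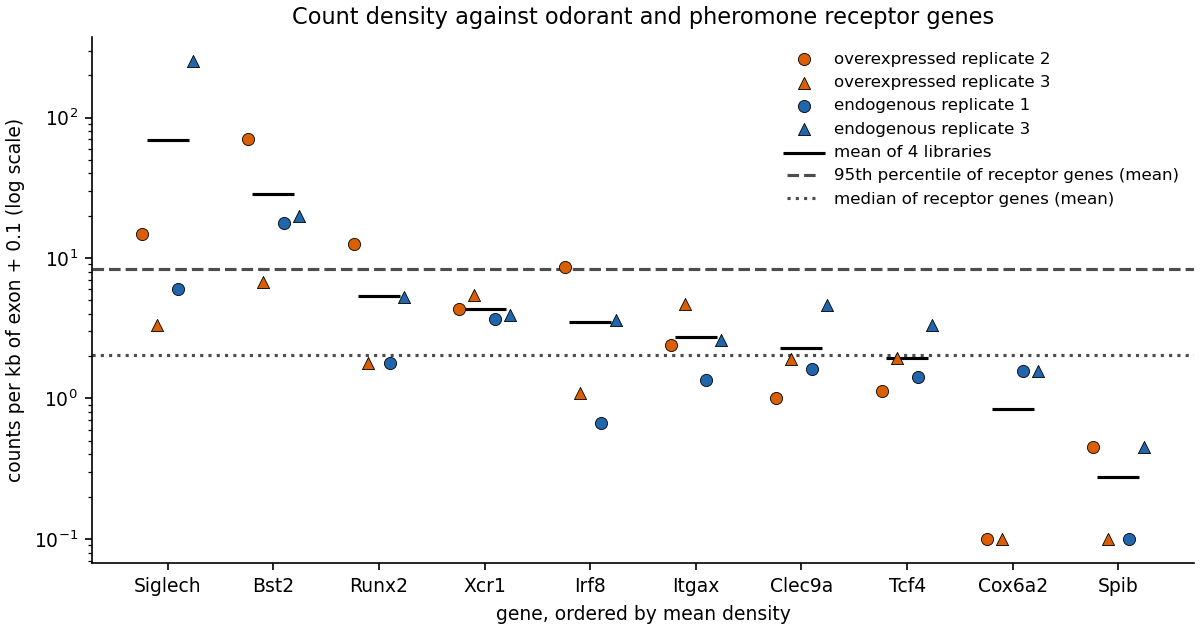
Counts per kb of exon plus 0.1, on a log scale, for each of the 10 dendritic cell genes in overexpressed (orange) and endogenous (blue) libraries; the black bars are means of the 4 libraries and the lines give the median (1.93) and the 95th percentile (8.30) of receptor genes. The bars of Siglech (69.5) and Bst2 (28.5) lie above the upper line, and the other 8 lie below it.

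The main comparison asked whether these genes differed when miR-125a was overexpressed. No dendritic cell gene passed. With edgeR's quasi-likelihood F test and Benjamini-Hochberg adjustment, 0 of the 7 genes that passed the count filter had an adjusted p under 0.05, and the same test called 0 of 10808 genes, 0% as higher and 0% as lower. On data simulated for this design the quasi-likelihood test called none of the changed genes, so its lack of calls does not show that values were alike. At an unadjusted p under 0.05 there were 0 of the 7 and 5.24% of all genes tested. Spib, Cox6a2 and Clec9a did not pass the filter. When no filter on low counts was set, edgeR called 1 of the 10, Siglech (log2 fold -3.43, adjusted p = 0.049), beside 0.709% of 46089 genes called as higher and 1.07% as lower. DESeq2 gave 5 of the 7 an adjusted p, Itgax and Xcr1 being without one, and called 0 of these 5, beside 1.39% of the 4103 genes with an adjusted p as higher and 2.29% as lower. A likelihood ratio test in edgeR called 0 of the 7, beside 0.241% as higher and 0.537% as lower. Of the 7, 5 had higher and 2 lower values with overexpression. Their median log2 fold was 1.00, against -0.01 for all genes tested. Both rested on overexpressed replicate 2: without it 2 had higher and 5 lower values, and the median was -0.87. Without endogenous replicate 3 all 7 had higher values (median 1.13). With 2 libraries against 2, an exact permutation test of a single gene cannot go below a two-sided p of 0.333.

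**Figure D2:**
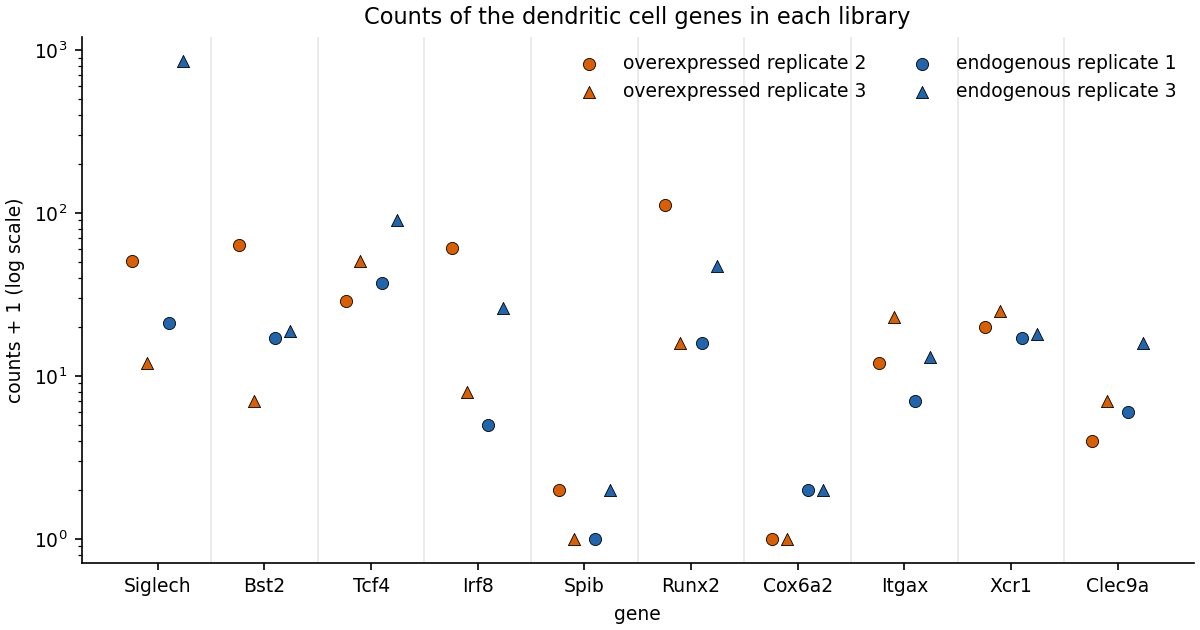
Counts plus 1, on a log scale, of the 10 dendritic cell genes in overexpressed (orange) and endogenous (blue) libraries, 1 point per library. Siglech reached 860 counts in endogenous replicate 3, while Bst2, Irf8 and Runx2 were highest in overexpressed replicate 2.

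Siglech encodes Siglec-H, a sialic acid-binding surface lectin of mouse plasmacytoid dendritic cells (ENSMUSG00000051504.18, chromosome 7, 55768178 to 55778925 of the mm10 build, plus strand, 6 exon blocks). It had 50 and 11 counts in overexpressed replicates 2 and 3, against 20 and 860 counts in endogenous replicates 1 and 3. The groups overlapped, since overexpressed replicate 2 lay above endogenous replicate 1. On the scale of CPM, counts divided by library size after TMM scaling, Siglech averaged 55.7 ± 53.2 CPM with overexpression and 637 ± 850.5 CPM with endogenous miR-125a (SD, n = 2 each). The 2 endogenous libraries differed from each other 34.7-fold. The log2 fold was -3.52 ± 1.71 (SE), with an adjusted p of 0.845 by the edgeR test. Without endogenous replicate 3 it was 0.62, so the direction rested on that library. In bulk RNA, fewer cells of a type and less RNA per cell cannot be told apart.

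Endogenous replicate 3 also carried high counts of markers of other cells, whose part in the Siglech value was not tested. The erythroid list of 10 genes summed to 679 and 267 CPM in overexpressed replicates 2 and 3, against 709 and 4363 CPM in endogenous replicates 1 and 3. Its defining genes Klf1 and Epor had at most 3 counts in a library. The monocyte and macrophage list of 10 genes summed to 608 and 264 CPM with overexpression, against 274 and 624 CPM in endogenous replicates 1 and 3. Without its leading gene Lyz2 it was highest in overexpressed replicate 2, at 487 and 215 CPM against 274 and 395 CPM.

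Bst2 encodes tetherin, an interferon-induced membrane protein that holds back budding viruses and serves as a surface marker of mouse plasmacytoid dendritic cells (ENSMUSG00000046718.8, chromosome 8, 71534255 to 71537456, minus strand, 5 exon blocks). It had 63 and 6 counts in the overexpressed libraries, against 16 and 18 in the endogenous libraries. The overexpressed libraries lay on either side of the endogenous pair, which were close to each other (63.7 ± 76.2 CPM against 27.2 ± 1.83 CPM; SD, n = 2 each). The log2 fold was 1.21 ± 1.03 (SE; adjusted p = 0.916 by the edgeR test). It was -1.41 without overexpressed replicate 2 and 2.13 without overexpressed replicate 3, whose mitochondrial share was low. The part of that share in the Bst2 value was not tested.

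Irf8, a transcription factor needed for conventional type 1 dendritic cells and monocytes, lies on chromosome 8 at 120736358 to 120756694 (ENSMUSG00000041515.10, plus strand, 11 exon blocks). It had 60 and 7 counts in overexpressed replicates 2 and 3, against 4 and 25 in endogenous replicates 1 and 3. The groups overlapped, and the 2 overexpressed libraries differed 9.76-fold in CPM and the 2 endogenous libraries 5.05-fold. The fold without 1 library ran from -0.87 to 3.05 on the log2 scale, with all 4 libraries it was 1.47 ± 1.14 (SE), and the adjusted p by the edgeR test was 0.898.

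The promoters of Bst2 and Irf8 are shown because both are known targets of interferon signalling. Both genes were highest in overexpressed replicate 2, as was Runx2. The part of interferon in these values was not tested. The promoters are RefSeq windows on GRCm38.p6, from 250 bases before to 50 after the start of the gene. They lie at chr8:71537423-71537722 on the minus strand for Bst2 and chr8:120736108-120736407 on the plus strand for Irf8. Capitals mark matches, on either strand, to an interferon-stimulated response element (ISRE, searched as GAAA, any 2 bases, then GAAA) or an interferon-gamma activated site (GAS, TTCNNNGAA).
Bst2: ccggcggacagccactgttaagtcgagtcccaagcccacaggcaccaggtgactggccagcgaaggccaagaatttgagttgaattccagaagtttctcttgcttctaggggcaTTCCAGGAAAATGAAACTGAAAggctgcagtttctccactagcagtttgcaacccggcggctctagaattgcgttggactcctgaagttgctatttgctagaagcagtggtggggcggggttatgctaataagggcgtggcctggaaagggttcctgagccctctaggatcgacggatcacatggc
Irf8: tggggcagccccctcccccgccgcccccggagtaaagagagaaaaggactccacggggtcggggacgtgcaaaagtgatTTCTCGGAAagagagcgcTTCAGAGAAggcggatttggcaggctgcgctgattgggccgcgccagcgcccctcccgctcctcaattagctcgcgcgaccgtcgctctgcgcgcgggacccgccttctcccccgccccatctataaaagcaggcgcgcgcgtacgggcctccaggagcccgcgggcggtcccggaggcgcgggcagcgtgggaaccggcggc

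The Bst2 window held 2 ISRE matches and 1 GAS match that overlap in 1 run of capitals, and the Irf8 window shown held 2 GAS matches. A second RefSeq window of Irf8, at chr8:120738389-120738688, held 0 of either and is not shown. Among 32851 promoter windows of this length, 3.44% held an ISRE match and 8.3% a GAS match. Windows were given for 8 of the 10 genes, all but Tcf4 and Cox6a2. The window of Siglech held 1 GAS match and those of Clec9a, Spib, Itgax, Xcr1 and Runx2 held 0 of either, which says only that these letters are not in these windows.

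Runx2, a Runt family factor that acts downstream of TCF4 in plasmacytoid dendritic cells and drives bone formation elsewhere, lies on chromosome 17 at 44495987 to 44814797 (ENSMUSG00000039153.16, minus strand, 11 exon blocks). It had 111 and 15 counts in overexpressed replicates 2 and 3, against 15 and 46 in endogenous replicates 1 and 3. Overexpressed replicate 2 was the highest library and the other overexpressed library had the same count as the lower endogenous one. The log2 fold was 1.30 ± 1.05 (SE; adjusted p = 0.907 by the edgeR test), and -0.87 without overexpressed replicate 2. The antisense gene Runx2os1 shares 519 exon bases with Runx2 and had 0 counts in the 4 libraries.

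The library in which Bst2, Irf8 and Runx2 were highest also had the highest summed level of neutrophil markers, whose part in these values was not tested. The neutrophil list of 12 genes summed to 21926 and 13087 CPM in overexpressed replicates 2 and 3, against 8673 and 10701 CPM in endogenous replicates 1 and 3, and without its leading gene Ltf to 6085 and 944 CPM against 586 and 5322 CPM. The plasma cell list of 6 genes summed to 2006 and 210 CPM with overexpression against 392 and 295 CPM, and the T and NK cell list of 9 genes to 433 and 81.9 CPM against 67.7 and 114 CPM. Each of these sums was set by 1 gene in overexpressed replicate 2, Jchain with 1816 CPM and Nkg7 with 388 CPM. Without Jchain the plasma cell list summed to 190 and 193 CPM against 248 and 166 CPM, and without Nkg7 the T and NK cell list to 44.8 and 57.3 CPM against 33.9 and 77.8 CPM, so overexpressed replicate 2 was then the highest library for neither. Cd3e, a defining gene of T cells, had at most 5 counts in a library, and the natural killer cell receptor gene Ncr1 at most 2. Cd3d, another CD3 chain gene of that list, had more, with 10 and 17 counts with overexpression against 8 and 25. Cd4 had 6 and 5 counts against 5 and 9.

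**Figure D3:**
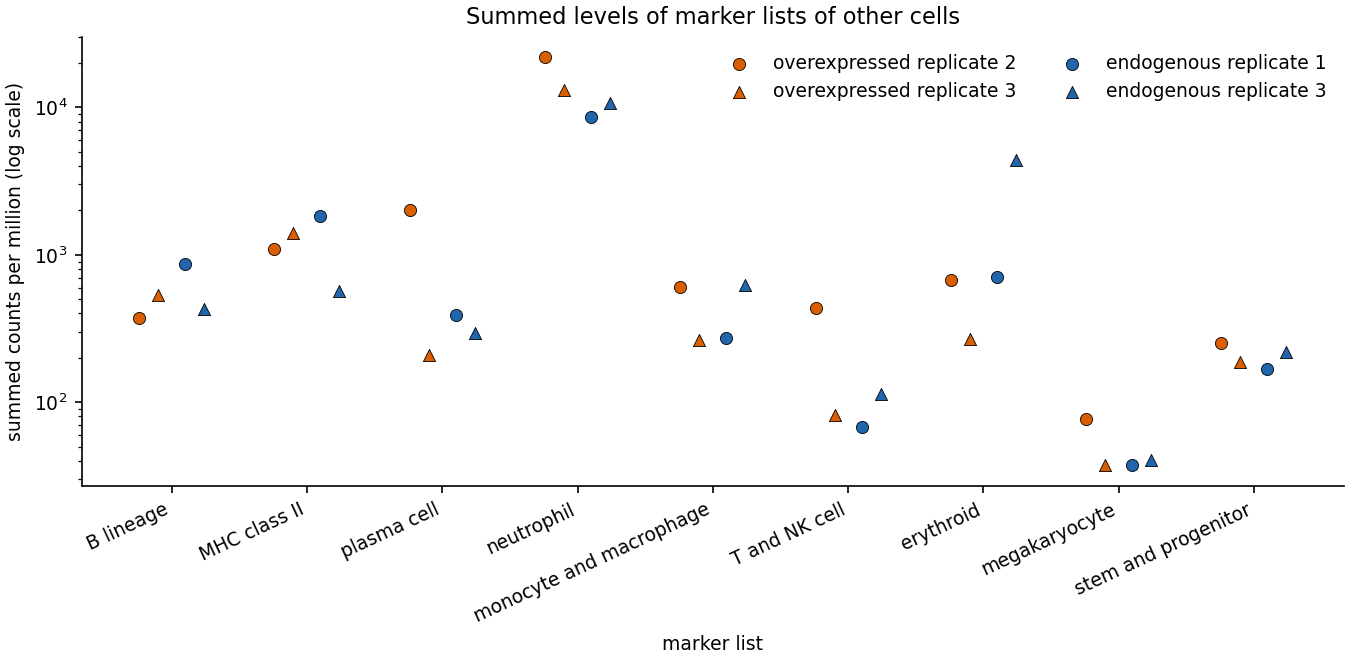
Summed CPM, on a log scale, of 9 marker lists of other cells in overexpressed (orange) and endogenous (blue) libraries. Overexpressed replicate 2 has the highest neutrophil sum (21926 CPM) and endogenous replicate 3 the highest erythroid sum (4363 CPM).

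Tcf4, the E protein that sets plasmacytoid identity, lies on chromosome 18 at 69343356 to 69689079 (ENSMUSG00000053477.17, plus strand, 36 exon blocks). It had 28 and 50 counts in overexpressed replicates 2 and 3, against 36 and 89 in endogenous replicates 1 and 3. The groups overlapped, at 67.1 ± 21.0 CPM with overexpression and 96.2 ± 45.3 CPM with endogenous miR-125a (SD, n = 2 each). The log2 fold was -0.52 ± 0.63 (SE; adjusted p = 0.958 by the edgeR test), and 0.05 without endogenous replicate 3. Spib, the ETS factor that supports plasmacytoid differentiation, had 1 and 0 counts in the overexpressed libraries and 0 and 1 in the endogenous libraries. Cox6a2, a subunit of cytochrome c oxidase otherwise found in heart and skeletal muscle, had 0 and 0 counts with overexpression, against 1 and 1. A sum of 3 counts per group is taken as the floor, and both genes lay under it in each group, so no fold is given. On the opposite strand Itgad shares 70 exon bases with Cox6a2.

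Itgax, Xcr1 and Clec9a are the conventional dendritic cell genes of the set. Itgax encodes CD11c, an integrin alpha chain on nearly all mouse dendritic cells (ENSMUSG00000030789.9, chromosome 7, 128129547 to 128150657, plus strand, 30 exon blocks). It had 11 and 22 counts in the overexpressed libraries, against 6 and 12 in the endogenous libraries. After scaling to CPM the overexpressed libraries (20.5 and 36.0 CPM) lay above the endogenous ones (10.7 and 17.3 CPM). The log2 fold was 1.00 ± 0.50 (SE; adjusted p = 0.845 by the edgeR test).

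Xcr1, the receptor for the chemokine XCL1, had 19 and 24 counts with overexpression, against 16 and 17 (ENSMUSG00000060509.4, chromosome 9, 123852315 to 123862029, minus strand, 2 exon blocks). Its scaled libraries did not overlap either (35.5 and 39.3 CPM against 28.5 and 24.5 CPM), and the libraries differed 1.11-fold within the overexpressed and 1.16-fold within the endogenous group. The log2 fold was 0.50 ± 0.39 (SE; adjusted p = 0.902 by the edgeR test). Itgax and Xcr1 were thus 2 of 7 genes whose scaled libraries did not overlap and were higher with overexpression, while 15.2% of all genes tested had that order, and 18% the reverse. The log2 fold of Itgax stayed between 0.57 and 1.39 and that of Xcr1 between 0.37 and 0.72 when any 1 library was left out. The mean densities of Itgax and Xcr1 were below the background level.

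Clec9a, a C-type lectin that binds actin exposed on dead cells, had 3 and 6 counts in overexpressed replicates 2 and 3, against 5 and 15 in endogenous replicates 1 and 3 (ENSMUSG00000046080.17, chromosome 6, 129408862 to 129424763, plus strand, 7 exon blocks). The ratio of its summed, scaled counts was 0.493, with a 95% exact interval of 0.198 to 1.13. With no filter on low counts its log2 fold was -0.93 ± 0.69 (SE; adjusted p = 0.959 by the edgeR test). In the authors' deposited table it had a log2 fold of 0.96, endogenous over overexpressed, with an FDR of 0.905. The interval of the ratio holds 1 and covers counting error only, and the labels name no molecular identifiers. Clec9a shares 184 exon bases with Clec1b on the same strand, so some of its few counts could belong to that gene.

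The genes peaked in different libraries. Of the 8 genes with more than 6 counts in all, Bst2, Irf8 and Runx2 were highest in overexpressed replicate 2 after scaling, Itgax and Xcr1 in overexpressed replicate 3, 0 in endogenous replicate 1, and Siglech, Tcf4 and Clec9a in endogenous replicate 3. The plasmacytoid surface genes Siglech and Bst2 therefore did not peak together. Among the 7 genes tested, the median absolute difference between the 2 overexpressed libraries was 2.32 on the log2 CPM scale, against 0.58 for all genes tested. Between the 2 endogenous libraries it was 0.99, against 0.52 for all genes tested. Among the marker lists of other cells it ran from 0.31 (plasma cell, 4 genes tested) to 5.50 (erythroid, 6 genes tested) between the overexpressed libraries. Between the endogenous libraries those lists ran from 0.33 (megakaryocyte, 1 gene tested) to 3.90 (erythroid). Large differences between libraries were thus not particular to the dendritic cell genes. Counts of the 10 genes together came to 346 and 141 in overexpressed replicates 2 and 3, against 119 and 1084 in endogenous replicates 1 and 3, and Siglech alone made up 79.3% of the last.

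**Figure D4:**
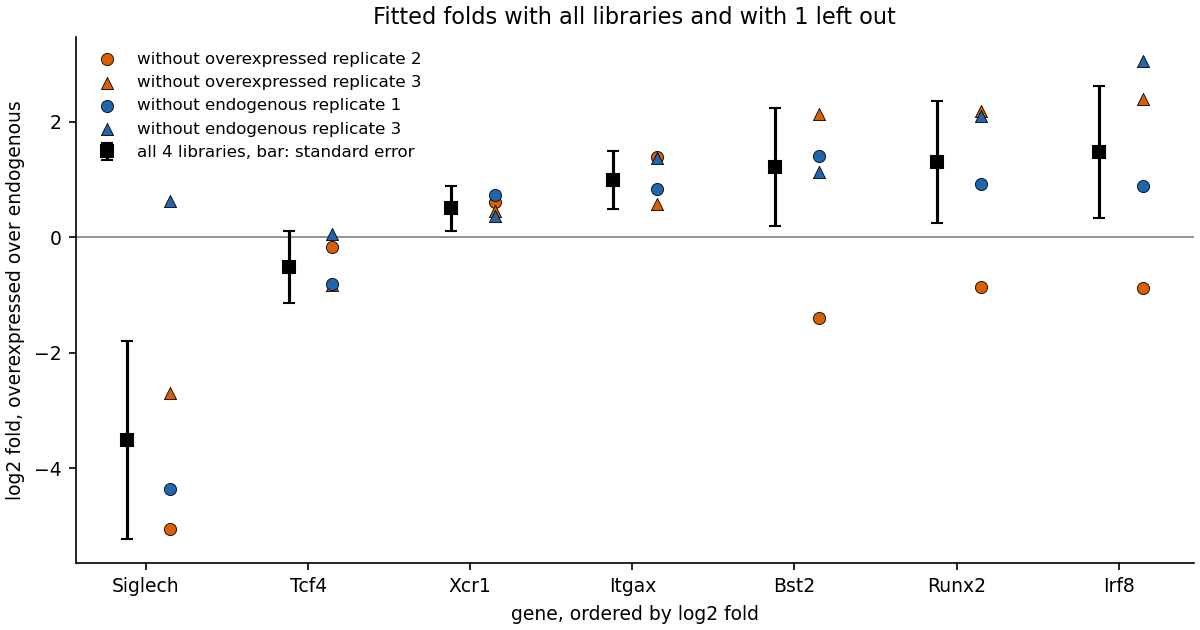
Log2 fold, overexpressed over endogenous, of the 7 dendritic cell genes tested; squares with bars are the fit of all 4 libraries with its standard error, and coloured points are fits without 1 library. The points of Xcr1 and Itgax stay above 0, those of Bst2, Runx2 and Irf8 drop below 0 without overexpressed replicate 2, and those of Siglech and Tcf4 rise above 0 without endogenous replicate 3.

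In the authors' deposited table of edgeR results, 8 of the 10 genes were listed and none (0) had a false discovery rate (FDR) under 0.05. There 0.91% of 17039 genes were called as higher with overexpression and 1.46% as lower. No source states the direction of its folds, which was taken from the counts: 98.9% of the genes shared with the present fit had the opposite sign, so its folds run endogenous over overexpressed. In the authors' deposited table Siglech had a log2 fold of 3.46 in that direction with an FDR of 0.101, and Irf8 had -1.51 with an FDR of 0.521.

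Other plasmacytoid genes gave no common direction. Of 23 listed, 14 were tested, 8 with higher and 6 with lower values, 0 were called and 2 had an unadjusted p under 0.05, beside 5.24% of all genes tested (median log2 fold 0.16). Without overexpressed replicate 2 the counts were 6 with higher and 8 with lower values (median -0.12). The 2 genes were Ly6d, which marks lymphoid progenitors that can give rise to plasmacytoid dendritic cells, and Ctsl, which encodes the lysosomal protease cathepsin L. Ly6d had 0 and 1 counts in overexpressed libraries, against 100 and 10 in endogenous replicates 1 and 3 (log2 fold -6.48 ± 1.68 SE, unadjusted p = 0.00855, adjusted p = 0.845 by the edgeR test). With so few counts the ratio of its summed, scaled counts was 0.00996, with a 95% exact interval of 0.00025 to 0.0566. In the authors' deposited table Ly6d had a log2 fold of 6.50, endogenous over overexpressed, with an FDR of 3.9e-05, and it was the 1 gene called of 15 plasmacytoid genes listed there. Ly6d was highest in endogenous replicate 1, which also had the highest sum of the B-lineage list. The 12 genes of that list summed to 371 and 531 CPM with overexpression, against 868 and 429 CPM in endogenous replicates 1 and 3. The part of B-lineage cells in the Ly6d value was not tested. Ctsl had 22 and 11 counts, against 46 and 62 (log2 fold -1.54 ± 0.58 SE, adjusted p = 0.845 by the edgeR test). In neither did the groups overlap, and 18% of all genes tested had that order. Chosen after their values were seen, Ly6c2, a surface gene shared with monocytes, had 116 and 2 counts against 12 and 107, and Plac8 had 87 and 1 against 55 and 239. In both genes the groups overlapped, and overexpressed replicate 3 was the lowest library.

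Of further genes of conventional dendritic cells, 3 of 14 type 1 and 3 of 12 type 2 genes lay above background, beside 8.26% of all genes. Clec12a, a type 2 gene above it that did not enter the fit, had 485 and 1 counts in overexpressed replicates 2 and 3. In endogenous replicates 1 and 3 Clec12a had 5 and 5. Of the 14 type 1 genes 5 were tested, 1 with a higher and 4 with lower values (median log2 fold -0.30). Without endogenous replicate 3 there were 3 with higher and 2 with lower values (median 0.60). Cd24a, which encodes a surface glycoprotein also found on erythroid and B-lineage cells, did not enter the fit, with 10 and 4 counts in overexpressed replicates 2 and 3, against 3 and 371 in endogenous replicates 1 and 3. In the authors' deposited table it had a log2 fold of 4.35, endogenous over overexpressed, with an FDR of 0.0137, the 1 call among 8 type 1 genes listed there. Its groups overlapped, and its high count lay in endogenous replicate 3 alone. Batf3, the factor required for this lineage, had 0 and 1 counts against 0 and 0. Naaa, a lysosomal amidase, had 6 and 1 counts against 11 and 10, and Wdfy4, needed for cross-presentation, had 50 and 176 against 62 and 68. Of the 12 type 2 genes 4 were tested, 3 with higher and 1 with a lower value (median 0.26). Irf4, which directs type 2 cells, had 36 and 40 counts against 32 and 29, and Relb, an NF-kappa-B subunit, had 17 and 13 against 15 and 10. The adjusted p of these 4 genes by the edgeR test ran from 0.852 to 0.965.

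Among 16 growth factor, receptor and maturation genes 7 were tested, 4 with higher and 3 with lower values (median log2 fold 0.09), and 3 with higher and 4 with lower values without overexpressed replicate 2 (median -0.12). Flt3, the receptor that drives dendritic cell development, had 242 and 33 counts in overexpressed replicates 2 and 3, against 56 and 37 in endogenous replicates 1 and 3 (1.72 ± 1.09 SE, adjusted p = 0.859 by the edgeR test). Cd83, a surface protein of mature dendritic cells, had 84 and 30 counts against 28 and 10 (1.68 ± 0.86 SE, 0.845). Overexpressed replicate 2 was again the highest library, and in each gene the groups overlapped.

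Of 14 genes of the sensing pathway that makes interferon in plasmacytoid cells, 0 lay above background, beside 8.26% of all genes. Of these 3 were tested, 1 with a higher and 2 with lower values (median log2 fold -0.36). The endosomal receptors Tlr7 and Tlr9 had 5 and 4, and 2 and 3, counts with overexpression, against 2 and 7, and 5 and 2, and Ifnb1, the gene of interferon beta, was at 0 in every library analysed. Unc93b1, the chaperone that carries these receptors to endosomes, had 15 and 6 counts against 22 and 51 (-1.59 ± 0.64 SE, unadjusted p = 0.0475, adjusted p = 0.845 by the edgeR test). Irak4, a kinase below the receptors, had 17 and 16 counts against 24 and 22.

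Of 18 further interferon-response genes, a class to which Bst2 belongs, 2 lay above background, beside 8.26% of all genes. Of the 18, 6 were tested, 3 with higher and 3 with lower values (median log2 fold 0.29). Of all genes tested 49.6% had higher values. Without 1 library 4 or 5 of the 6 had higher values, beside 47.5% to 58.2% of all genes tested. Ddx58, which encodes the RNA sensor RIG-I, had 53 and 12 counts in overexpressed replicates 2 and 3, against 10 and 9 in endogenous replicates 1 and 3 (1.93 ± 0.82 SE, adjusted p = 0.845 by the edgeR test). Ifih1, which encodes the RNA sensor MDA5, had 117 and 210 counts against 128 and 82, and Isg15 had 0 and 2 against 1 and 3. Overexpressed replicate 2 was thus the highest library for Ddx58, as for Bst2, but not for Ifih1. The mean densities of Ddx58 and Isg15 were below the background level.

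Of 24 relatives and partners of the 10 genes, 12 were tested, 8 with higher and 4 with lower values (median log2 fold 0.14), and 2 had an unadjusted p under 0.05, beside 5.24% of all genes tested. Runx3, a paralog of Runx2, had 1287 and 377 counts in overexpressed replicates 2 and 3, against 201 and 162 in endogenous replicates 1 and 3, so the groups did not overlap, an order that 15.2% of all genes tested had (2.35 ± 0.93 SE, adjusted p = 0.845 by the edgeR test). Cox6a1, the widely expressed counterpart of Cox6a2, had 6 and 0 counts against 20 and 43 (-3.15 ± 0.97 SE, 0.845). In the authors' deposited table Cox6a1 had a log2 fold of 3.12, endogenous over overexpressed, with an FDR of 0.00642, the 1 call among 15 relatives listed there. That table called 0 genes of the type 2, growth, sensing and interferon-response lists. Per length, Cox6a1 had a mean of 24.6 counts per kb of exon and Cox6a2 of 0.735.

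Outside the 10 genes, seed matches to miR-125a-5p were found in some of the further listed genes. They are shown for Runx3 (bases 739 to 745 of its UTR), Irf4 (352 to 358) and Ifih1 (224 to 230), the genes named above that hold one.
Runx3: actgggttCTCAGGGggcagaca
Irf4: gtccatttCTCAGGGaagtaaag
Ifih1: cacctgggCTCAGGGaatgccca

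Matches were in 5 of 23 plasmacytoid, 2 of 14 type 1, 2 of 12 type 2, 2 of 16 growth, 3 of 12 sensing, 4 of 18 interferon-response and 4 of 24 related genes with a 3' UTR, against the 14.1% of coding genes given above. Of the further listed genes with a match 12 were tested, 9 with higher and 3 with lower values in overexpressed libraries (median log2 fold 0.44). Of those with no match 39 were tested, 19 with higher and 20 with lower values (median -0.04). Without 1 library the matched genes had between 8 and 11 higher values, and those with no match between 16 and 21. Of all genes tested 49.6% had higher values, and from 47.5% to 58.2% without 1 library. The 3 shown were among the 9, with log2 folds of 2.35 for Runx3, 0.43 for Irf4 and 0.70 for Ifih1, and the 3 with lower values were Lifr (-0.19), Rab7b (-0.40) and Rsad2 (-0.54). None (0) of the 12 was called by the edgeR test, and the difference between matched and unmatched genes was not tested.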

How the data were processed

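RNA from sorted marrow cells was sequenced from a low-input kit. Tools listed in the submitters' processing notes are edgeR 3.24.3, STAR and FastQC 0.11.8, with mm10 as the build. The counter, its annotation and its strand setting were not given in the sources used here. The deposited gene counts are whole numbers that were not normalized. The authors' deposited tables also give log2 folds and mean log2 CPM, a likelihood ratio and a signed score, and p-values and FDR, per the file headers. All 55450 identifiers matched GENCODE vM21 (GRCm38).

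Counts were fitted with edgeR 4.0.16 in R 4.3.3 (filterByExpr, TMM, quasi-likelihood F test with the legacy dispersion method); DESeq2 1.42.0 and limma 3.58.1 were alternatives. Tested on simulated data of this design, the fit recovered the larger folds in the median, but the quasi-likelihood test called none of the changed genes. The likelihood ratio test and DESeq2 called most of those with the larger folds and also some unchanged genes. Changes were simulated only in genes with a higher mean count than Bst2, Irf8, Xcr1 and Itgax had. The simulation therefore does not show what these tests would call at the counts of those genes. SE was obtained by dividing the size of the log2 fold by the root of its F statistic. CPM was computed on the library size of the tested genes times the TMM factor. Densities are mean counts per kb of merged exon. The design of 3 against 3 became 2 against 2, the libraries with counts.

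The 10 genes and the lists were chosen with earlier results of these data known. Named are the 10 genes and, where nothing was called, the 2 tested genes of each dendritic list with the smallest p; other genes were chosen after their values were seen. No p is adjusted over a list. List sums without their leading gene, and list counts without 1 library, were added after seeing the data. Of the further lists, those of B-lineage cells, MHC class II, megakaryocytes and stem cells summed to 371 and 531, 1101 and 1412, 76.5 and 37.7, and 254 and 188 CPM in overexpressed replicates 2 and 3, against 868 and 429, 1836 and 572, 37.4 and 40.3, and 168 and 220 CPM in endogenous replicates 1 and 3.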

Additional observations from a re-analysis of the deposited data

How the results depend on the processing

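The 2 counts, called dendritic cell genes and called genes of the whole table, were 0 with RLE factors, with plain library totals, with at least 10 counts summed, with limma-voom and without any 1 library (lowest 0, highest 0). With no low-count filter edgeR called 1 of the 10 genes, Siglech (log2 fold -3.43, adjusted p = 0.049; over its alternatives 0.049 to 0.998), and 822 of 46089 genes, 0.709% higher and 1.07% lower. DESeq2 called 151 genes and the likelihood ratio test 84, with 0 dendritic cell genes among them (2 of the 7 had no adjusted p in DESeq2); the cause was not tested. Leaving out 1 library turned the direction of 5 genes: the log2 fold ran from -5.05 to 0.62 for Siglech, from -1.41 to 2.13 for Bst2, from -0.87 to 3.05 for Irf8, from -0.87 to 2.19 for Runx2 and from -0.84 to 0.05 for Tcf4. Under the 7 other settings these 5 genes, Itgax and Xcr1 had the same direction as reported. Plain library totals moved the median of the tested genes to -0.29, against -0.01 with TMM. No paired analysis was possible because the libraries analysed share 1 replicate number, 3. With counts this low, differences in Spib and Cox6a2 were not detectable at this depth.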
